A study of Mus musculus with 4 samples.

Results

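The mouse gene features in these 4 libraries hold 45 symbols that begin with Mmp, Timp or Adamts followed by a digit: 22 matrix metalloproteinases, 4 tissue inhibitors of metalloproteinases and 19 ADAMTS proteases. The 28 with at least 50 unique molecular identifiers (UMIs) over the 4 libraries are described here, against 16702 of 31017 symbols in all. They are 10 Mmp, all 4 Timp and 14 Adamts genes. Timp4 lay closest above this minimum with 136 UMIs, and Mmp3 and Adamts3 closest below it with 44 each. The others below it were Adamts16 (41), Adamts20 (40), Mmp24 (38), Adamts18 (28), Mmp25 (12), Mmp28 (11), Adamts13 (10), Mmp10 and Mmp27 (8 each), Mmp13 (7), Mmp8 (3), and Mmp7 and Mmp20 (1 each), and Mmp1b and Mmp21 had 0.

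All 4 libraries came from testes of C57BL/6 mice that carry the Acr-Gfp transgene, a fluorescent marker driven by the promoter of a germ cell gene. In the 2-day and 7-day culture libraries, testes were taken at 7 days postpartum (dpp), freed of their capsule, cut up and placed on agarose below a PDMS ceiling chip, in AlbuMAX-supplemented α-MEM. The other libraries were made from uncultured testes at 9 dpp and 14 dpp, so that age plus culture time adds up to the age of the in vivo library in each pair. The labels give neither the number of animals pooled nor a preparation date, and their library text speaks of female gonads although the tissue is given as testis. Each group had 1 library. There is therefore no replicate error and no test between groups, and the culture cannot be told apart from the library.

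Matrix metalloproteinases are zinc enzymes that cut collagens, laminins and other matrix proteins, and are made as inactive proforms. ADAMTS proteases are their secreted relatives, of which some cut the proteoglycans aggrecan and versican and others trim procollagens. TIMPs bind the catalytic site of these enzymes, and TIMP2 also helps MMP14 to activate pro-MMP2 at the cell surface. In the testis, these genes act on the tubule wall and on the junctions between Sertoli cells and germ cells, which are rebuilt as the first germ cells enter meiosis.

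The sequences below show the start regions that go with the results. They are the 250 bases before the annotated start in RefSeq (GRCm38.p6), which held 17 such windows for 15 of the 28 members. The Timp1 and Mmp11 windows are shown because both genes were higher than in vivo in both culture libraries. The Mmp12 and Mmp3 windows are shown because their UMIs came almost only from the cultures. Capitals mark the AP-1 element TGAGTCA in the Mmp12 and Mmp3 windows, and the GC box GGGCGG on either strand in the Timp1 and Mmp11 windows.
Timp1 (chrX:20869916-20870165, + strand, within an intron of Syn1 on the opposite strand): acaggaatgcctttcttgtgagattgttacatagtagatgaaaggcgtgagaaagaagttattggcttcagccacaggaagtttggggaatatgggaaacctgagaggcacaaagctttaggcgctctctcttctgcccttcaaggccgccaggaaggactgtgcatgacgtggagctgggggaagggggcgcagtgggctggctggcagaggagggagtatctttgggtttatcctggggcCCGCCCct
Mmp11 (chr10:75932503-75932752, - strand): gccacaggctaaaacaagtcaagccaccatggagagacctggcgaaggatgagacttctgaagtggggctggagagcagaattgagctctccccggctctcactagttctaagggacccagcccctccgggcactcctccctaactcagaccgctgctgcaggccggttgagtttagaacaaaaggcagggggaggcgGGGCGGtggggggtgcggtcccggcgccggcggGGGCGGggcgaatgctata
Mmp12 (chr9:7347124-7347373, + strand, before the second of its 2 starts, within an intron): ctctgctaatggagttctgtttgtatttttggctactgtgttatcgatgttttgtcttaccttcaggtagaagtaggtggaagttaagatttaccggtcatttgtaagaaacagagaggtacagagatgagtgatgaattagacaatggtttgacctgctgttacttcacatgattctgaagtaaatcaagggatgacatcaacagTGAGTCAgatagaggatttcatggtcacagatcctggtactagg
Mmp3 (chr9:7445572-7445821, + strand): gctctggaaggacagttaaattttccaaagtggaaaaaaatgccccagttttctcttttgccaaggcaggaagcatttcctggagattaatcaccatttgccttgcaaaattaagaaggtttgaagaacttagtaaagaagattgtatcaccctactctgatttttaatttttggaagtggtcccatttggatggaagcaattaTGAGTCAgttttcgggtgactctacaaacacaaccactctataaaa
The AP-1 element was in 1466 of all 32851 windows of this length, or 4.46%, and its first base lay at -44 from the start in Mmp12 and at -46 in Mmp3. No other member window held it. The GC box was in 32.7% of all windows and in 10 of the 17 member windows, with its first base at -8 in Timp1 and at -52 and -19 in Mmp11. A match of letters is a description of the window and shows no binding.

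The kept cells numbered 6877, 4816, 5150 and 6195. Lists of 4 values run through the cultures of 2 and 7 days and then through 9 dpp and 14 dpp. They held 32078508, 37117012, 57585867 and 56210929 UMIs, with medians of 3606 to 8544.5 per cell. Pairs of libraries shared 35 to 86 barcodes. Cells were put in classes by their UMIs of fixed marker genes, and no member is a marker. Stromal/myoid-like cells numbered 2191, 1386, 1454 and 1082, Sertoli-like cells 1193, 538, 881 and 997, germ-like cells 2682, 2483, 2387 and 3593, and Leydig-like cells 94, 73, 109 and 141. A cell's class was that of its Leiden cluster for 97.1% or more of the cells in these 4 classes. In 2 of these classes, most culture and in vivo cells lay in different clusters: stromal/myoid-like cells in clusters 0, 7 and 13 against 6 and 10, and Sertoli-like cells in 9 and 16 in culture, 12 at 9 dpp, and 14 and 19 at 14 dpp.

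Levels are CPM, the UMIs of a gene scaled to a total of 1000000 in the library or class. A ratio is the log2 ratio of CPM plus 1, and a member is called higher or lower when it is at or past 1 in size. Intervals are exact Poisson intervals at 95% and cover counting error only. Since the kit counts 1 end of each transcript, CPM is not divided by gene length.

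The inhibitor Timp1 had the largest difference from in vivo tissue among the 28 members in the 2-day culture. Its level was 755 and 86.0 CPM in the 2-day and 7-day cultures, and 22.2 and 17.6 CPM in their in vivo partners. The ratio was 5.03 (2-day culture against 9 dpp) and 2.23 (7-day culture against 14 dpp), and the level was lower at 7 days than at 2 days by 3.12 on the log2 scale. Timp1 lies on chromosome X (20870166 to 20874735, GRCm38). Timp2, the partner of MMP14, showed another order, with 167, 148, 71.4 and 177 CPM. It was the only member called higher at 14 dpp than at 9 dpp (ratio 1.30), and it was higher in the 2-day culture (1.22) but not in the 7-day culture (-0.25). Timp3, which binds to the matrix and also inhibits ADAMTS proteases, stayed between 59.7 and 74.4 CPM in all 4 libraries. Timp4 was at 1.15 CPM or less in each.

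Of the gelatinases, Mmp2 stood at 140, 88.7, 37.0 and 9.14 CPM in the 4 libraries. It was higher than in vivo in both pairs, by 1.89 and 3.14. In vivo it was lower at 14 dpp than at 9 dpp (-1.90), so that the larger ratio in the later pair goes with a lower in vivo level, not with a higher culture level. Mmp9 was between 1.40 and 2.69 CPM, and its ratios were -0.11 and -0.33.

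Mmp11, grouped with the stromelysins and activated inside the cell by furin, had 152, 94.8, 55.0 and 28.5 CPM. Its ratios were 1.45 and 1.70. Both culture libraries were above both in vivo libraries. Mmp11 overlaps Chchd10 on the opposite strand, whose level was 1591, 1265, 893 and 1091 CPM, with ratios of 0.83 and 0.21. Whether the counting used strand is not given in the sources used here.

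Mmp14, the membrane-type enzyme that activates pro-MMP2, was nearly level in 3 libraries, with 129, 114 and 110 CPM, and lower at 14 dpp with 65.8. Neither ratio (0.23 and 0.79) reached the fold. Mmp23, which is anchored in the membrane before its release, had 52.2, 28.2, 22.2 and 6.01 CPM and was higher in both pairs (1.19 and 2.06). Like Mmp2, it was lower at 14 dpp than at 9 dpp (-1.73).

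Among proteases that cut proteoglycans, Adamts5 was the most abundant by CPM and was close in all 4 libraries, at 81.2, 99.3, 103 and 86.6. Adamts1, which lies beside Adamts5 on chromosome 16, had 31.3, 33.9, 22.2 and 15.7 CPM, with ratios of 0.47 and 1.06. Adamts4 had 9.91, 4.28, 2.36 and 1.32 CPM and was higher in both pairs (1.70 and 1.19). Adamts9 was lower in the 7-day culture (8.27 CPM) than in the other libraries (15.4, 15.7 and 13.7), by less than the fold. The procollagen N-proteinase Adamts2 had 59.4, 43.6, 23.9 and 14.0 CPM, with ratios of 1.28 and 1.57. Adamts10, which binds fibrillin microfibrils, was at 10.9, 9.59, 12.5 and 7.83 CPM.

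**Figure D1:**
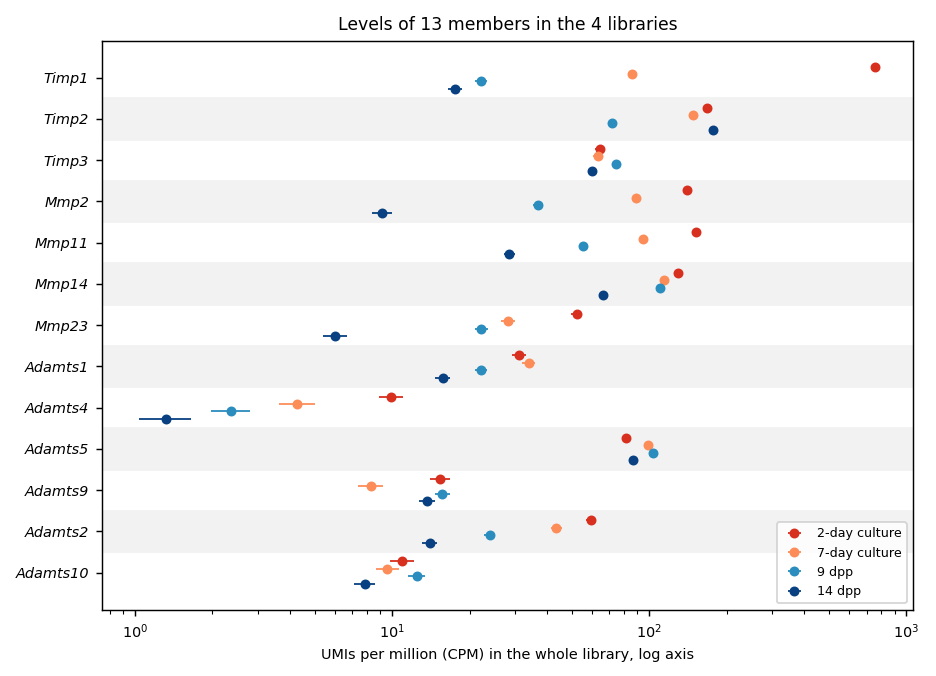
Level of the 13 members that reached 10 CPM in a library or were called in both culture pairs. The x axis is CPM on a log scale, each point is 1 library, and bars are exact Poisson intervals. Timp1 in the 2-day culture stands at 755 CPM, and Mmp2, Mmp11, Mmp23, Adamts2 and Adamts4 are higher in both cultures than in both in vivo libraries.

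Counted over the 28 members, 8 were higher in the 2-day culture than at 9 dpp, against 4.17% of all genes tested, and 0 were lower, against 3.39%. The 8 were Timp1, Mmp2, Adamts4, Mmp11, Mmp19, Adamts2, Timp2 and Mmp23. In the 7-day culture against 14 dpp, 8 were again higher, against 3.58%, and 0 lower, against 2.66%: Mmp12, Mmp2, Timp1, Mmp23, Mmp11, Adamts2, Adamts4 and Adamts1. The 6 that were higher in both pairs were Timp1, Mmp2, Mmp11, Mmp23, Adamts2 and Adamts4, against 1.97% of all genes. No member was lower in both, against 1.26%. The median ratio of the members was 0.25 and 0.27, beside -0.12 and 0.00 for all genes.

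The classes made up different parts of the libraries, and this moved with the ratios. Stromal/myoid-like cells gave 29.96% and 17.1% of the UMIs in the 2-day and 7-day cultures, against 15.6% at 9 dpp and 8.45% at 14 dpp. When the levels within classes were kept and the class shares of the culture libraries were set to those of their in vivo partner, 4 members remained called as higher in the early pair (2.71% of all genes) and 5 in the late pair (2.4%). This was an alternative chosen after seeing the data. Timp1 (4.25 and 1.68), Mmp2 (1.10 and 2.32) and Mmp11 (1.06 and 1.37) were higher in both pairs, against 1.1% of all genes. Timp2 in the 2-day culture then had a ratio of 0.59, Adamts2 0.62 and 0.93, Adamts4 1.01 and 0.79, and Mmp23 0.85 and 2.02. Adamts5 was called lower in the 2-day culture on this scale, with -1.18, against 3.25% of all genes. No member was lower in the late pair (2.47%) or in both pairs (1.13%).

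**Figure D2:**
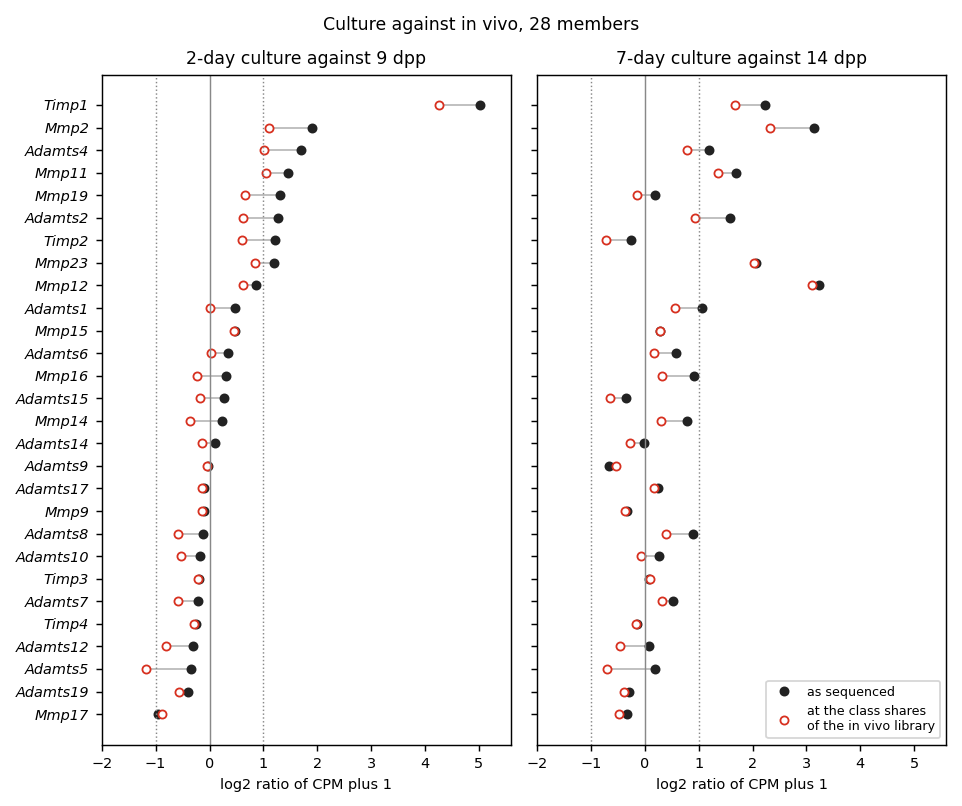
Log2 ratio of CPM plus 1 of culture against in vivo for the 28 members, for the early pair (left) and the late pair (right). Filled points are the libraries as sequenced, open points have the class shares of UMIs of the in vivo library, and dotted lines mark a ratio of 1 in either direction. Most open points lie to the left of the filled ones, and Timp1, Mmp2 and Mmp11 stay past 1 in both panels.

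Stromal/myoid-like cells had the highest level among the 4 large classes for 21, 21, 19 and 20 of the 28 members in the 4 libraries. Within these cells, Timp1 was at 1953, 325, 77.7 and 56.0 CPM, with ratios of 4.63 and 2.52. Its UMIs in the 2-day culture were unevenly spread. The 471 of 2191 cells with at least 10 Timp1 UMIs, a bound set after the data were seen, held 77.6% of them, and no in vivo cell of the class had more than 5. After each cell was thinned to 2000 UMIs, Timp1 was found in 73.6%, 30.6%, 13.3% and 10.3% of these cells, against 4.23%, 0.50%, 0.68% and 0.34% of germ-like cells. Before thinning, cells of the class had median depths of 3727, 4075, 5571 and 4062 UMIs, and germ-like cells 3548.5, 6503, 10923 and 6746.

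Mmp2 and Mmp11 were also higher in stromal/myoid-like cells of both cultures. Mmp2 had 385, 456, 154 and 82.4 CPM (ratios 1.31 and 2.45), and Mmp11 had 286, 306, 105 and 85.9 CPM (1.44 and 1.82). Adamts2 (0.46 and 0.71) and Adamts4 (0.79 and 0.82), called higher in both pairs over the whole library, were under the fold in the class as a whole. Mmp23 was higher in the 2-day culture only by the fold, with 97.9, 63.7, 25.6 and 36.0 CPM (1.89 and 0.80). Mmp14 did not pass the fold in either pair in the class as a whole, with 271, 412, 328 and 222 CPM.

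Other members went the other way in the same cells. Timp3 had 44.0, 108, 211 and 252 CPM, with ratios of -2.23 and -1.22. Adamts5 had 236, 532, 623 and 949 CPM and was lower by the fold in the 2-day culture (-1.39), with -0.83 in the later pair. Adamts9 had 10.1, 6.00, 25.9 and 53.3 CPM (-1.28 and -2.95). Mmp17 was lower in both pairs too (-2.16 and -1.44), from levels of 10.7 CPM or less. Of the 23 members with at least 50 UMIs in these cells, 5 were called higher (5.81% of genes) and 7 lower (7.31%) in the early pair, and 4 higher (5.13%) and 4 lower (4.93%) in the late pair. At 14 dpp against 9 dpp, Adamts9 was the 1 higher (2.09%) and Adamts8 the 1 lower (3.0%). From 2 to 7 days of culture, 5 were higher (3.57%), among them Timp3 and Adamts5, and Timp1 was the 1 lower (3.6%). Across the whole library, Timp3 and Adamts5 were close in all 4 libraries. Stromal/myoid-like cells held 20.5%, 29.1%, 44.3% and 35.7% of all Timp3 UMIs, and Sertoli-like cells 67.4%, 52.5%, 43.0% and 43.7%. Of the Adamts5 UMIs, stromal/myoid-like cells held 87.1% or more in every library.

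When cells of the class were parted by their marker UMIs, stromal-like cells numbered 1681, 887, 747 and 442, and myoid-like cells, which have the contractile markers of the tubule wall, 178, 306, 502 and 490. Timp3 in stromal-like cells was 36.7, 57.1, 43.7 and 56.9 CPM, with no difference past the fold. In myoid-like cells it was 76.1, 257, 413 and 406 CPM, lower by the fold in the early pair (-2.42) and not in the late pair (-0.66). The part that the unequal numbers of these cells have in the class value was not tested. Timp1, in contrast, was higher in culture in both, with 2104, 409, 97.0 and 75.2 CPM in stromal-like and 543, 103, 54.4 and 38.1 in myoid-like cells. Adamts5 in stromal-like cells was 226, 498, 851 and 1378 CPM, lower in both cultures than in both in vivo libraries (ratios -1.91 and -1.47). In myoid-like cells it was 326, 614, 361 and 597 CPM, with ratios of -0.15 and 0.04. Of 22 members with at least 50 UMIs in stromal-like cells, 6 were higher (6.9%) and 4 lower (6.61%) in the early pair, and 7 higher (7.5%) and 5 lower (4.85%) in the late pair. Of 20 in myoid-like cells, 3 were higher (4.4%) and 6 lower (9.2%) in the early pair, and 3 higher (3.42%) and 2 lower (5.43%) in the late pair. Timp1 and Mmp2 were among the higher ones in all 4 of these counts, and Mmp11, Adamts4 and Adamts8 in the 2 of stromal-like cells. Adamts4 had ratios of 1.33 and 1.95 in stromal-like cells, and of -0.22 and 0.20 in myoid-like cells. Mmp14 was higher by the fold in stromal-like cells in the late pair (1.06), with 498 CPM in the 7-day culture and 238 at 14 dpp. Adamts8, lower in the early pair in the class as a whole (-1.11), was higher in stromal-like cells (1.82) and had -0.45 in myoid-like cells. In stromal-like cells it had 37 UMIs in the 2-day culture and 3 at 9 dpp. In the late pair Adamts8 was higher in the class as a whole (1.43), in stromal-like cells (1.80) and in myoid-like cells (2.02).

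Clusters within the class differed as well. In the 2-day culture, cluster 7, led by the chemokine genes Cxcl5, Ccl5, Ccl2 and Ccl7 and by Spp1, had 2627 CPM of Timp1, and cluster 0, led by Igfbp5 and Itgbl1 among others, had 762. In the 7-day culture, cluster 13, led by Apoe and complement genes C3 and C4b, had 409 CPM of Timp1, 444 of Mmp11 and 548 of Mmp14, beside 150, 135 and 245 in cluster 0. Mmp2 was higher in cluster 0 than in cluster 7 at 2 days (543 against 299 CPM). At 2 days, cluster 7 thus had more Timp1 and less Mmp2 than cluster 0. Whether the levels of these genes differ in this way from cell to cell was not tested.

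**Figure D3:**
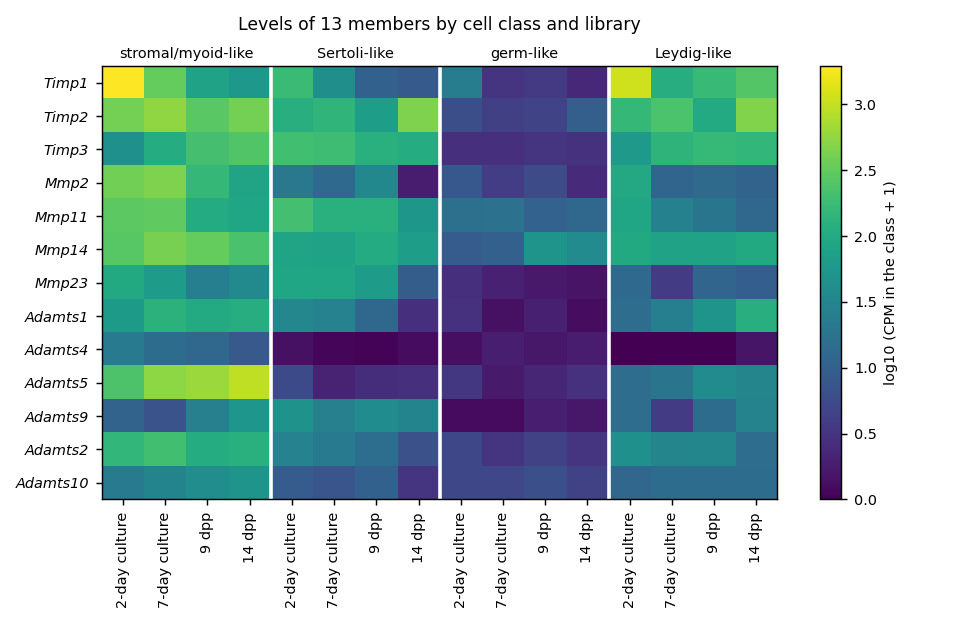
Level of 13 members in the 4 classes with at least 50 cells in every library. Color is log10 of CPM in the class plus 1, with the 4 libraries side by side in each class. Timp1 is brightest in stromal/myoid-like cells of the 2-day culture (1953 CPM), Adamts5 is brightest in stromal/myoid-like cells, and Timp2 is bright in Sertoli-like cells at 14 dpp (455 CPM).

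Sertoli-like cells differed between 9 dpp and 14 dpp in the inhibitor Timp2 and in several proteases. Timp2 was at 66.7 CPM (interval 62.6 to 70.9) at 9 dpp and 455 (444 to 467) at 14 dpp, a ratio of 2.75, and at 115 and 142 CPM in the 2-day and 7-day cultures. The proteases went the other way. Mmp2 was at 33.4 CPM at 9 dpp and 0.82 at 14 dpp (ratio -4.24), with 19.5 and 12.4 in the cultures. Mmp23 was at 65.8 and 8.41 CPM in vivo (-2.83), with 86.4 and 84.0 in the cultures. Adamts1, with 11.5 and 1.86 CPM, and Adamts7, with 11.5 and 0.52, followed the same order in vivo. Of the 14 members with at least 50 UMIs in these cells, 1 was higher (6.08% of genes) and 7 were lower (7.77%) at 14 dpp than at 9 dpp.

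The 7-day culture shares its total age with the 14 dpp library, and in Sertoli-like cells 8 of these 14 members were higher in culture (9.68% of genes) and 1, Timp2, was lower (8.47%). These calls use the same 14 dpp library as the comparison in vivo. The ratios were 2.88 for Mmp2, 3.17 for Mmp23, 3.34 for Adamts1, 2.26 for Adamts7, 1.86 for Adamts2, 1.24 for Adamts10, 1.13 for Mmp11, 2.33 for Timp1 and -1.68 for Timp2. Against 9 dpp, the 2-day culture had 4 called higher (6.53%) and 0 lower (6.27%), with Timp1 at 4.02, Adamts1 at 1.44, and Mmp15 (1.11) and Adamts5 (1.01) from under 7 CPM. After an estimate of free RNA from stromal marker UMIs was subtracted, Adamts5 was at 1.31 CPM in the 2-day culture and 0 at 9 dpp. From the 2-day to the 7-day culture, 0 of the 14 were called higher (2.97%) and 3 lower (3.8%).

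Part of the Sertoli-like cells at 14 dpp, cluster 19, was led by the germ cell genes Sycp1 and Sycp3. Timp2 was at 415 CPM there and at 480 in cluster 14. Without cluster 19, the levels at 14 dpp were 480 for Timp2, 1.08 for Mmp2 and 9.46 for Mmp23. The 2-day culture held a shallow cluster 16 with a median of 1202 UMIs, and without it Timp1 was at 171 CPM against 172 with it. Thinned to 2000 UMIs a cell, Timp2 was found in 21.4%, 22.5%, 12.1% and 56.7% of Sertoli-like cells of the 4 libraries, against at most 1.59% of germ-like cells. Timp3 was higher in Sertoli-like than in stromal/myoid-like cells in both cultures (196 and 183 against 44.0 and 108 CPM) and lower in vivo (122 and 109 against 211 and 252).

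**Figure D4:**
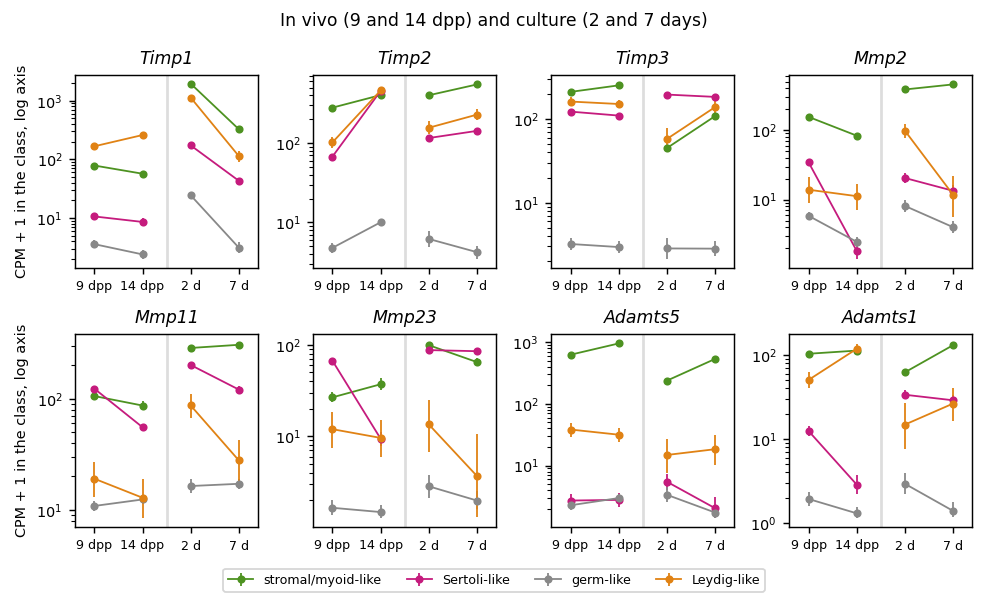
CPM plus 1 on a log axis for 8 members in 4 classes, with the in vivo libraries at the left of each panel and the cultures at the right, and exact Poisson intervals as bars. Lines join libraries of different age or culture time and no replicates. In Sertoli-like cells, Timp2 is higher and Mmp2, Mmp23 and Adamts1 lower at 14 dpp than in the other libraries.

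Leydig-like cells, the steroid-making cells between the tubules, were few, at 73 to 141 per library. Timp1 in these cells was at 1129 and 113 CPM in the cultures, and at 166 and 259 CPM in vivo. The ratio was thus 2.76 in the early pair and -1.20 in the late pair. Timp2 was at 155, 228, 101 and 461 CPM, so that it was higher at 14 dpp than at 9 dpp here too (2.18), against 3.29% of genes. Adamts1 was at 13.9, 25.5, 49.6 and 118 CPM, lower in culture by 1.77 and 2.17 on the log2 scale. Mmp2 had 97.1 CPM in the 2-day culture and at most 12.9 in the other libraries, from 8 to 70 UMIs a library. Of the 13 members with at least 50 UMIs in the class, 3 were higher (5.0%) and 4 lower (11.4%) in the early pair, and 2 higher (6.06%) and 5 lower (8.92%) in the late pair. At 14 dpp against 9 dpp, 3 were higher (Timp2, Adamts1 and Adamts9) and 2 lower (4.49%), and from 2 to 7 days of culture 1 was higher (6.93%) and 4 were lower (6.68%). Timp4 was found in 17 of 109 of these cells at 9 dpp, with 24 UMIs.

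Germ-like cells had low levels of most members. Timp1 was at 23.4, 2.12, 2.60 and 1.40 CPM. An estimate of free RNA, from stromal marker UMIs in germ-like cells, was a fraction of 0.0164 to 0.0315 of each cell sum, and after it was subtracted Timp1 was at 1.90, 0.71, 1.99 and 0.85 CPM. Mmp14 was different, with 8.08 and 9.23 CPM in the cultures against 48.9 and 38.0 in vivo, and ratios of -2.46 and -1.93. After subtraction it was at 4.39, 7.36, 45.9 and 35.9 CPM. Of the 21 members with at least 50 UMIs in germ-like cells, it was the only one lower in the early pair (3.23% of genes), where Timp1 before this subtraction was the 1 higher (1.34%). Mmp14 and Timp2 were the 2 lower in the late pair (2.44%), with 0 higher (0.739%). At 14 dpp against 9 dpp, Timp2 was higher (5.38%) and Mmp2 lower (1.08%), and between the cultures 0 were higher (5.63%) and 3 lower at 7 days (2.56%): Timp1, Mmp2 and Adamts1. After free RNA was subtracted, Timp2 at 14 dpp against 9 dpp had a ratio of 0.66, and Timp1 and Mmp2 between the cultures had -0.76 and -0.69, all under the fold. The ratio of Timp2 was then -1.33 in the late pair and -1.01 in the early pair, where it was 0.37 before. Timp2 thus also was lower by the fold in the early pair, but only after subtraction. These ratios rest on levels of 0.41, 0.78, 1.83 and 3.47 CPM and depend on the free RNA estimate.

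The in vivo Mmp14 UMIs of germ-like cells came from few cells. At 9 dpp, 33 of 2387 cells had at least 10 each and held 59.1% of the UMIs, with up to 80 in a cell, and at 14 dpp 23 of 3593 cells held 62.2%, with up to 169. In Sertoli-like cells at 9 dpp and in stromal/myoid-like cells of any library, the highest cell had 23 and 34. The 33 cells had 57.5 CPM of the 12 stromal markers together, against 59.0 in the other germ-like cells at 9 dpp. The 23 cells at 14 dpp had 29.7 against 40.6. Germ cell markers were at 4578 against 4928 CPM at 9 dpp and 5343 against 7800 at 14 dpp. Sertoli markers were at 492 against 455 and 462 against 590. The cells with at least 10 UMIs were deeper than the rest, with medians of 16759 against 10854.5 UMIs at 9 dpp and 12925 against 6722 at 14 dpp. Without cells that had 10 or more, a bound set after the data were seen, the level was 8.08, 8.35, 20.3 and 14.5 CPM. The ratio was then -1.23 in the early pair and -0.73, under the fold, in the late pair. Where the reads of these cells map cannot be read from the counts, and the part of depth was not tested.

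Of the 33 cells at 9 dpp, 16 were in cluster 3 and 9 in cluster 2, and of the 23 at 14 dpp 13 and 5, so the levels of these clusters rest in part on them. By cluster, Mmp14 was at 62.7 CPM at 9 dpp and 86.0 at 14 dpp in cluster 3, which held mostly in vivo cells, and at 75.6 and 28.5 in cluster 2, which is led by Esx1 and Dmrtb1. In cluster 2 it was 9.75 CPM in the 2-day culture and 10.1 in the 7-day culture. Cluster 8, in which the stem and progenitor genes Zbtb16 and Gfra1 were highest among germ-like clusters, had 10.1, 21.8, 21.4 and 6.69 CPM. There the 2-day culture lay below 9 dpp. The 7-day culture lay above 14 dpp (intervals 16.1 to 28.9 against 4.73 to 9.18), unlike in germ-like cells as a whole. Mmp9 was highest in cluster 8, at 16.9, 4.999, 10.9 and 10.2 CPM, against at most 3.25 CPM in any other germ-like cluster with at least 50 cells in the library. In vivo, 82.6% and 84.1% of all Mmp9 UMIs of the library were in germ-like cells, against 47.4% and 46.2% in the cultures. In the 2-day culture, stromal/myoid-like cells held as many of its UMIs as germ-like cells (37 of 78 each), and in the 7-day culture macrophage-like cells held 24 of 52, with 17 in 1 cell.

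**Figure D5:**
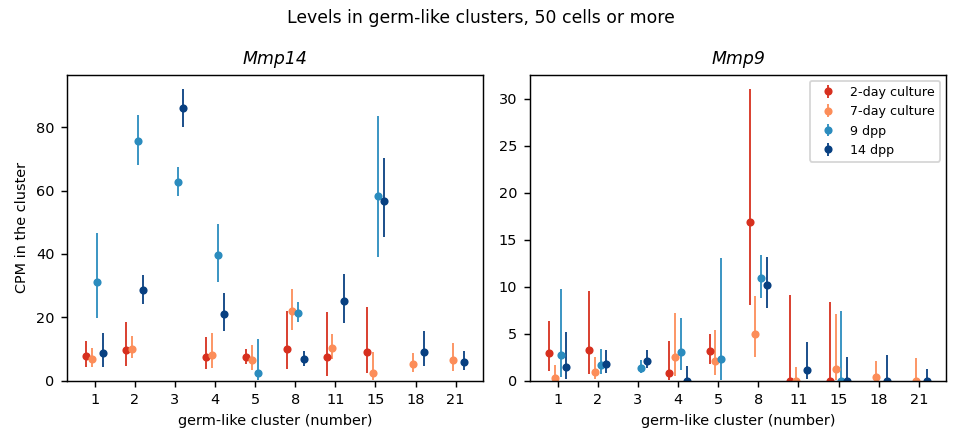
CPM of Mmp14 (left) and Mmp9 (right) in germ-like cells by cluster, for libraries with at least 50 cells in the cluster, with exact Poisson intervals. Mmp14 stands highest in clusters 2, 3 and 15 in vivo, and Mmp9 in cluster 8.

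Mmp12, the macrophage elastase, had 26, 316, 0 and 1 UMIs in the 4 libraries. Of these, 25 and 307 in the cultures were in macrophage-like cells, which numbered 10, 20, 28 and 52. At 2 days they came from 1 cell. At 7 days they came from 9 of 20 cells, and 1 cell held 209. Median depths of these cells were 8213, 37867, 10173.5 and 7663.5 UMIs, and the part of depth in the Mmp12 difference was not tested. Without that cell the 7-day culture stood at 2.89 CPM in place of 8.51, and the ratio at 1.93 in place of 3.22. No macrophage-like cell had an Mmp12 UMI at 9 dpp or 14 dpp, and the exact binomial 95% upper bounds on the share of cells with a UMI were 12.3% and 6.85%. Timp2 in macrophage-like cells was at 80.2, 312, 477 and 734 CPM, from 7 UMIs in the 2-day culture. Mmp12 is 1 of 9 Mmp genes within chromosome 9 (7272514 to 7699585, GRCm38), and the others were all under the minimum. Mmp3, another of the 9, had 37, 4, 0 and 1 UMIs, and 26 of the 37 came from 9 stromal/myoid-like cells.

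Vessel cells were too few for calls. Endothelial-like cells numbered 60, 23, 21 and 40, and in them Mmp14 was at 480, 274, 88.3 and 62.2 CPM, Timp1 at 597, 403, 122 and 71.1, and Adamts4 at 96.6, 50.6, 10.2 and 2.22. Pericyte-like cells numbered 39, 47, 41 and 40, with Mmp11 at 306, 592, 35.5 and 74.5 CPM and Mmp14 at 346, 863, 280 and 186. In both, the cultures lay above the in vivo libraries for Mmp14, and in pericyte-like cells for Mmp11. The in vivo values of Adamts4 in endothelial-like cells rest on 3 and 1 UMIs. Of other immune cells, 0 were classed as neutrophil-like or mast-like and 7 as lymphocyte-like.

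The other 15 members stayed under 10 CPM in every library. Mmp19 was called higher in the 2-day culture (5.52 against 1.61 CPM at 9 dpp, ratio 1.32), and Mmp12 in the 7-day culture. Adamts7 and Adamts8 were called lower at 14 dpp than at 9 dpp (-1.27 and -1.42), with Mmp2 and Mmp23, against 1.96% of all genes, and Timp2 was the 1 called higher, against 4.07%. Between the cultures, Timp1 and Adamts4 were lower at 7 days, against 2.35%, and Mmp12 was higher, against 4.5%.

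Summed by family, TIMP genes took 988, 298, 169 and 255 CPM, and 233, 212, 147 and 237 without Timp1. MMP genes took 491, 346, 237 and 119, and ADAMTS genes 227, 214, 201 and 150. The order of the libraries for the MMP sum was that of Mmp2, Mmp11 and Mmp23.

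Other genes of matrix turnover were taken from a fixed list of 57, of which 53 were tested. In the early pair 13 were higher (4.17% of all genes) and 2 lower (3.39%) by the fold, and in the late pair 10 (3.58%) and 0 (2.66%). The medians were 0.38 and 0.32, beside -0.12 and 0.00 for all genes. The 7 that were higher in both pairs (1.97%) included Plaur, the receptor that holds urokinase at the cell surface (12.3, 3.88, 0.61 and 0.53 CPM, ratios 3.05 and 1.67). Cd44, a hyaluronan receptor that can dock MMPs, had ratios of 3.23 and 2.36, and the collagen-cutting cathepsin Ctsk 1.90 and 2.18. Of 15 substrates, 5 were higher in the early pair and 3 in the late pair, with 0 lower. Bgn (2.21 and 2.02), Col1a1 (1.53 and 1.31) and Col3a1 (1.08 and 1.01) were higher in both, and within stromal/myoid-like cells Bgn still was (1.27 and 1.10), while Col1a1 was at 0.55 and 0.30 and Col3a1 at 0.17 and 0.24. In the same cells the elastin gene Eln was lower by the fold in both pairs (-1.69 and -1.19). The laminin genes Lamb1 (-1.03) and Lama5 (-1.06) were lower in the early pair. In the late pair Acan was lower (-2.13) and Fn1 higher (1.20). These substrates were named after their values were seen. Of all genes with at least 50 UMIs in the class, 7.31% were lower in the early pair. In the late pair 4.93% were lower and 5.13% higher. Col1a1 and Col3a1 are also class markers. None of the 8 related ADAM genes was called in the early pair, and 1 was in the late pair. Plau, which encodes urokinase, was under 1 CPM in every library.

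Of 20 listed transcription factors and cytokines that are known to act on MMP and TIMP genes, 18 were tested. In the early pair 6 were higher (4.17% of all genes) and 0 lower (3.39%), and in the late pair 6 (3.58%) and 0 (2.66%), with medians of 0.48 and 0.73. Junb, a part of AP-1, had 428, 625, 147 and 113 CPM (1.53 and 2.46). Cebpb had 142, 61.9, 24.2 and 6.14 CPM (2.50 and 3.14), and Relb, an NF-kB subunit, 49.9, 32.4, 12.4 and 15.1 CPM (1.93 and 1.05). Within stromal/myoid-like cells the ratios were 0.53, under the fold, and 1.50 for Junb, 2.72 and 3.31 for Cebpb, and 1.80 and 1.49 for Relb. Il6 was at 9.98 CPM in the 2-day culture and 0.19 or less in the other libraries.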

How the data were processed

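The 4 matrices of single-cell RNA sequencing were used, 1 per group. Their values are raw UMI counts per gene and barcode, made by the authors with Cell Ranger 3.0.2 on mm10, per the submitters' processing notes; the deposited counts were used without change. The cell calling and strand settings are not given in the sources used here. Identifiers were matched to GENCODE M21 (all 45 symbols). Barcodes were kept that held 500 genes or more and whose mitochondrial share was no higher than 20%, and 632 doublet calls (Scrublet in scanpy 1.11.5, expected rate 6%) were removed, which left 23038 of 24851 barcodes.

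Each cell was scored on fixed marker lists, and took the class of its highest score where that was at least 0.6 of the sum of the highest and the next score, with at least 3 markers detected. Of the kept cells, 1363 (5.92%) had a share between 0.55 and 0.65. Leiden clusters (leidenalg 0.10.2, resolution 1) served as a check. UMIs were summed by library, or by class with at least 50 cells in every library. Ratios add 1 to CPM. Shares of cells were also computed after thinning to 2000 UMIs, leaving out shallower cells. edgeR 4.0.16 gave TMM factors for an alternative only. The ratios and intervals were also computed on simulated Poisson counts, as a check of the computation only. These counts hold no spread between cells, animals or libraries beyond counting error.

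Members given by library reached 10 CPM in at least 1 library or were called in both pairs the same way; pathway genes are named when called in both pairs, except 1 that is not reported here. Plau, Il6 and the bounds of 10 UMIs were chosen after their values were seen. The members and lists were chosen with earlier results of these data known. No protein sequence is shown.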

Additional observations from a re-analysis of the deposited data

Results flagged for a closer look

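In each of the next 3 cases, a member was at or past the fold in opposite directions in 2 classes of the same pair of libraries. The difference between classes was not tested. Adamts1 had ratios of 1.44 in Sertoli-like and -1.77 in Leydig-like cells in the 2-day culture against 9 dpp, and of 3.34 and -2.17 in the 7-day culture against 14 dpp. The Leydig-like values rest on 10 and 19 UMIs in the cultures. Adamts5 in the early pair had -1.39 in stromal/myoid-like and -1.37 in Leydig-like cells, against 1.01 in Sertoli-like cells, where its level was at most 4.49 CPM. After free RNA was subtracted, that level was 1.31 CPM in the 2-day culture and 0 at 9 dpp. The Sertoli-like ratio ran from 0.31 to 1.33 over 8 alternatives and was past the fold in 5. Timp1 in the late pair had 2.52 in stromal/myoid-like and 2.33 in Sertoli-like cells, against -1.20 in Leydig-like cells. In the early pair Timp1 was higher in all 3 classes.

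Mmp3 lay under the minimum for a reported member, but its UMIs numbered 37 in the 2-day culture and 0 at 9 dpp.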

How the results depend on the processing

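No paired analysis was possible because each group has 1 library, and no replicate could be left out. Over the planned and added alternatives, all 16 whole-library ratios past the fold in the 2 culture pairs kept their sign, and 7 stayed past it in every alternative. Within classes, again in the culture pairs, 50 of 51 kept their sign and 27 stayed past the fold; the exception was Timp1 in germ-like cells of the early pair, at -0.044 after free RNA was subtracted (2.77 before). The calls between the 2 in vivo libraries and between the 2 cultures are outside these counts. The 8 members higher in the early pair were 5 with 10 added to CPM, 5 with each cell weighted equally and 4 at the class shares of the in vivo library, where 1 was lower. In that pair, 1 was lower also with 0.1 added, with a floor of 3 UMIs and with cells weighted equally (Mmp17). The 8 of the late pair were 5 with 10 added and 5 at the in vivo class shares, and 1 was lower with cells weighted equally (Adamts9). TMM scaling moved the median of all genes from -0.12 to -0.01 in the early pair and left the calls at 8 and 0 in both. Of 448 shares of cells, 351 moved out of their interval after thinning. Depth limits the members near 1 CPM, such as Timp4 with 136 UMIs in all barcodes. All intervals leave out differences between animals and cultures, since no group had a second library. Alternatives on class shares, on the cells with most Mmp12 or Mmp14 UMIs and on the Sertoli-like clusters were chosen after seeing the data.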
